A study of Mus musculus with 36 samples.

Results

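The genes described are 8 enzymes, transporters and regulators of gluconeogenesis in mouse liver: G6pc, Pck1, Fbp1, Pcx, Slc37a4, Foxo1, Ppargc1a and Creb3l3. They were chosen by name, with earlier results of these data known. Every probe set that the array annotation assigns to 1 of these symbols was taken, which gave 21 of 45101 probe sets. Of these, 17 were tested among 45037 probe sets in all. The other 4 are control probe sets for Pcx that the array carries to check RNA quality, and they are described without a test. RNA was measured on 36 Affymetrix expression arrays, 18 of liver and 18 of whole brain, and brain serves here as a contrast.

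The 12 groups held 3 arrays each. They were liver of sleep-deprived mice of 3 inbred strains (C57BL/6J, AKR/J, DBA/2J), liver of home-cage controls of the same strains, and the matching 6 groups of brain. All mice were males aged 12 to 13 weeks of an inbred strain, with no transgene or mutation named. Sleep-deprived mice were kept awake for 6 h after the lights came on, and controls stayed in their home cages; both were killed at Zeitgeber time (ZT) 6, that is 6 h after light onset. Food and water were always available, and how much either group ate is not given. Each array carried RNA pooled from 3 mice, so p-values measure the spread between pools and not between single animals. For 4 AKR/J controls, numbers 2 and 3 in each tissue, one label gives ZT 0 and another ZT 6. They were kept as ZT 6 controls.

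Gluconeogenesis makes new glucose from lactate, amino acids and glycerol, mainly in hepatocytes, and keeps blood glucose up between meals. Pyruvate carboxylase (Pcx) makes oxaloacetate in the mitochondrion, the cytosolic enzyme PEPCK (Pck1) turns oxaloacetate into phosphoenolpyruvate, fructose-1,6-bisphosphatase (Fbp1) reverses the committed step of glycolysis, and glucose-6-phosphatase (G6pc) releases free glucose. Slc37a4 carries glucose-6-phosphate into the endoplasmic reticulum, where G6pc works. Glucagon, through cAMP and CREB, and glucocorticoids raise transcription of Pck1 and G6pc, while insulin lowers it, in part by sending the forkhead factor FOXO1 out of the nucleus. Ppargc1a encodes the coactivator PGC-1alpha, and Creb3l3 encodes CREBH, a membrane-bound liver factor released by proteolysis.

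The start regions of the 4 genes that rose in liver, G6pc, Pck1, Slc37a4 and Foxo1, are shown because they are where the cAMP and insulin pathways are known to act on several of these genes. They are RefSeq sequences of the mouse assembly GRCm38.p6, from 250 bases before to 50 bases after the start, all on the plus strand. The G6pc window is chr11:101367466-101367765, that of Pck1 chr2:173152823-173153122, the first of Slc37a4 chr9:44396696-44396995 and that of Foxo1 chr3:52268087-52268386. Capitals mark TGACG, the core of the cAMP response element that CREB binds, or CAAAACA, a core of the insulin response sequence that FOXO proteins can bind, on either strand.
G6pc: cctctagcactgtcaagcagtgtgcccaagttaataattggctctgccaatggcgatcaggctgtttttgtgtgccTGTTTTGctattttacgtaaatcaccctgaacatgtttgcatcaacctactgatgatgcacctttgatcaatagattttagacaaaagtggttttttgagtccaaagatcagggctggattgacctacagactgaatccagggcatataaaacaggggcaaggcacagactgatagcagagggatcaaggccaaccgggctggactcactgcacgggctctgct
Pck1: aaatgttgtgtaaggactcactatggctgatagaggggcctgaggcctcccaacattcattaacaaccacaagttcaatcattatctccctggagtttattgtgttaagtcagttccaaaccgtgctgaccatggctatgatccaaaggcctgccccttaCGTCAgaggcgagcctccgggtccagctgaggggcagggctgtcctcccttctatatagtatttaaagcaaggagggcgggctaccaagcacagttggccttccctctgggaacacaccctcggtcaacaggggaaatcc
Slc37a4: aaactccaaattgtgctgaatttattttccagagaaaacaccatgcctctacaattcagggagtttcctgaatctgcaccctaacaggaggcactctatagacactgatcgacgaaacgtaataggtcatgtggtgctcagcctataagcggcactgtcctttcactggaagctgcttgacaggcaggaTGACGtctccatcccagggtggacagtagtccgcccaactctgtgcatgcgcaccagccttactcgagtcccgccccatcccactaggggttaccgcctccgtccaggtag
Foxo1: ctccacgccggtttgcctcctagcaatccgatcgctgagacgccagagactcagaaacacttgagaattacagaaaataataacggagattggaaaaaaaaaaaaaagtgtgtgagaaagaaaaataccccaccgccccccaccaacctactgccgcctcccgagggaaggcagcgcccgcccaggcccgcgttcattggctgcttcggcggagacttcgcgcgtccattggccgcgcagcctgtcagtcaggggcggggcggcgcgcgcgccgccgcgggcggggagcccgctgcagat

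In G6pc the letters CAAAACA lay on the minus strand at bases -174 to -168 from the start. In Pck1 the letters TGACG lay on the minus strand at -90 to -86, and in the first window of Slc37a4 they lay on the plus strand at -61 to -57. Neither motif was found in the Foxo1 window. All 8 genes had at least 1 window, 12 in all. TGACG was found in 4 of the 8 genes, CAAAACA in 2, and the forkhead core GTAAACA in 0. Besides Pck1 and Slc37a4, TGACG was found in Ppargc1a and Creb3l3, and besides G6pc, CAAAACA was found in Creb3l3. Ppargc1a and Creb3l3 were not called in liver, so the motifs were not confined to genes that rose. Among 32851 windows of the same length over the genome, 20.8% held TGACG, 6.3% CAAAACA and 3.6% GTAAACA. Genes with several windows had more chances of a match, no matches of different motifs overlapped, and a match is letters in a window and not a shown binding site.

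Array quality was even but for a few arrays. Correlations between arrays lay between 0.98 and 0.996 in liver and between 0.978 and 0.997 in brain. The hepatocyte marker list (9 genes, albumin among them) had a mean log2 level of 12.85 to 13.13 on sleep-deprived liver arrays and 12.75 to 12.95 on control liver arrays, and the neuron list (6 genes) had 11.20 to 11.34 on sleep-deprived brain arrays and 11.30 to 11.37 on control brain arrays. Liver array 1 of the DBA/2J controls stood apart: the difference between the 3' and 5' control probe sets of Pcx, which widens as RNA degrades, was 3.86 log2 units there. The same difference was 1.71 to 3.08 on the sleep-deprived liver arrays, the highest on C57BL/6J array 2. The 5 brain arrays doubted for their spread or RNA quality, together with this liver array, were left out as an alternative.

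In liver, 7 of the 17 tested probe sets rose with sleep deprivation in the average over the 3 strains, and 0 fell. They belong to 4 of the 8 genes: G6pc, Pck1, Slc37a4 and Foxo1. The test was limma's moderated test with Benjamini-Hochberg adjustment over all 45037 probe sets, and a probe set was called where the adjusted p was under 0.05. Over all probe sets, 2.40% were called higher and 1.21% lower in this comparison. The median change of the 17 probe sets was 0.15 log2 units, and that of all probe sets was -0.01. Fbp1, Pcx, Creb3l3 and every probe set of Ppargc1a did not pass.

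**Figure D1:**
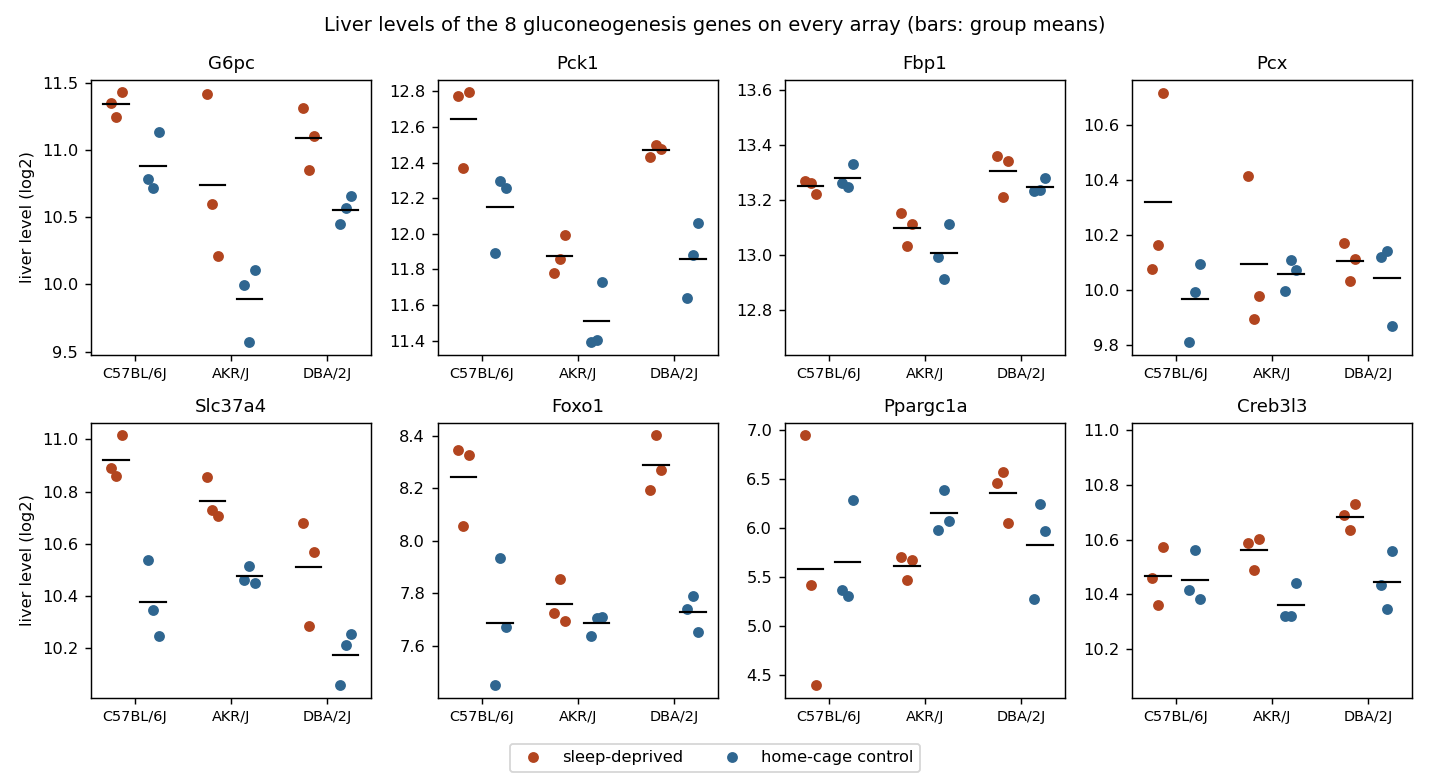
Log2 level in liver (y axis) of the probe set with the highest mean liver level for each of the 8 genes, by strain. Each gene has a separate scale that spans at least 1 unit. Sleep-deprived arrays are to the left of home-cage controls. Each point is an array of pooled RNA and bars are means of 3. G6pc, Pck1 and Slc37a4 have every sleep-deprived array above every control of the same strain in all 3 strains, and Fbp1 does not.

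G6pc, the last enzyme of the route, had every sleep-deprived array above every control of the same strain. Its log2 levels (probe set 1417880_at) were 11.35, 11.24 and 11.43 in sleep-deprived C57BL/6J livers, against 10.78, 10.72 and 11.13 in C57BL/6J controls. In AKR/J they were 11.41, 10.60 and 10.21 in sleep-deprived livers and 9.998, 9.57 and 10.11 in controls. In DBA/2J they were 11.31, 10.85 and 11.10 in sleep-deprived livers and 10.45, 10.57 and 10.65 in controls. The groups did not overlap in any strain, and the sleep-deprived AKR/J arrays were the most scattered, with 1 of them far above the other two. Averaged over strains, G6pc rose by 0.61 ± 0.12 log2 units (SE, 1.53-fold, adjusted p = 0.007504 by limma). The differences within strains (0.85 for AKR/J, 0.53 for DBA/2J, 0.46 for C57BL/6J, SE of 0.22 each) were all positive, and none of these passed alone (adjusted p of 0.08675, 0.2977 and 0.6133 by limma).

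Pck1, the enzyme that commits oxaloacetate to glucose synthesis, was measured by 3 probe sets. On the brightest, 1423439_at, log2 levels were 12.77, 12.37 and 12.79 in sleep-deprived C57BL/6J livers and 11.89, 12.30 and 12.26 in C57BL/6J controls. They were 11.78, 11.86 and 11.99 in sleep-deprived AKR/J livers, against 11.39, 11.40 and 11.73 in AKR/J controls. In DBA/2J they were 12.43, 12.50 and 12.48 in sleep-deprived livers and 11.64, 11.88 and 12.06 in controls. Every sleep-deprived array exceeded every control of its strain, although the margin in C57BL/6J and AKR/J was small. The mean rise was 0.49 ± 0.08 (1.41-fold, adjusted p = 0.00115 by limma), and DBA/2J alone passed among the strains, at 0.61 ± 0.14 (adjusted p = 0.04932 by limma), a call that was lost under 17 of 25 alternatives.

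The second Pck1 probe set, 1439617_s_at, gave a larger rise with a wider error, 0.79 ± 0.19 (1.73-fold, adjusted p = 0.02165 by limma). The suffix _s_at means that its probes can match more than 1 transcript. Levels were 12.21, 11.35 and 12.26 in sleep-deprived C57BL/6J livers, against 10.92, 11.31 and 11.46 in controls. In DBA/2J they were 12.06, 11.72 and 11.99 in sleep-deprived livers, against 9.65, 10.93 and 11.48 in controls. The sleep-deprived and control arrays overlapped in C57BL/6J and AKR/J and did not in DBA/2J, where the lowest value, 9.65, was on control array 1. No strain passed alone on this probe set.

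The gap between these Pck1 probe sets was widest on the array with the largest signs of RNA degradation. On DBA/2J control array 1, 1423439_at exceeded 1439617_s_at by 1.99 log2 units, and on the other 17 liver arrays by 0.37 to 1.11. That array also had the largest 3' minus 5' differences of Pcx (3.86), beta-actin (2.16) and Gapdh (0.65). The median Pcx difference was 1.96 in sleep-deprived livers and 2.18 in control livers. Without that array the mean rise of 1439617_s_at was 0.62 (adjusted p = 0.01179 by limma), and that of 1423439_at still passed. The part of RNA quality in the size of the 1439617_s_at change was otherwise not tested. The third probe set, 1455209_at, stayed near the bottom of the scale, with levels of 2.65 to 3.22 over all liver arrays, and did not pass (0.09 ± 0.06, adjusted p = 0.5055 by limma).

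**Figure D2:**
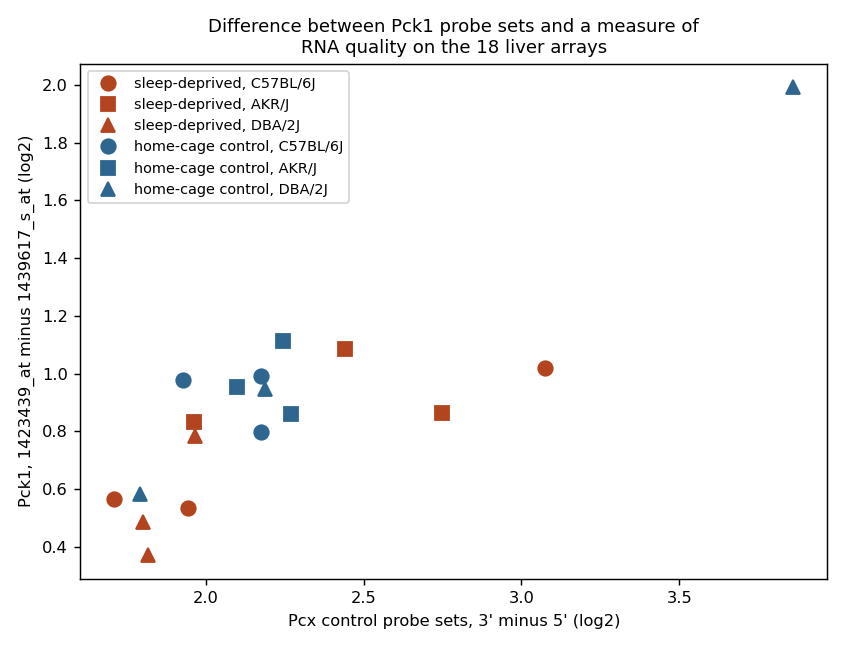
Difference between the Pck1 probe sets 1423439_at and 1439617_s_at (y axis, log2 units) against the difference between the 3' and 5' control probe sets of Pcx (x axis, log2 units) on the 18 liver arrays, coloured by condition and shaped by strain. DBA/2J control array 1 lies alone at 3.86 and 1.99.

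Fbp1 and Pcx, the other enzymes, gave no call. Fbp1 (1448470_at) had log2 levels of 13.03 to 13.36 in the 9 sleep-deprived livers and 12.91 to 13.33 in the 9 controls, with medians of 13.22 and 13.23. Its mean change was 0.04 ± 0.05 (adjusted p = 0.7366 by limma), the smallest error of the 17 probe sets; the rise of Pck1 was 0.49. Pcx (1416383_a_at), which feeds oxaloacetate into the route, had levels of 9.90 to 10.72 in sleep-deprived livers and 9.81 to 10.14 in controls. Its mean change was 0.15 ± 0.09 (adjusted p = 0.4331 by limma). A sleep-deprived C57BL/6J array at 10.72 and a sleep-deprived AKR/J array at 10.41 lay above all the others, which overlapped. The Pcx control probe set at the 3' end had levels of 9.73 to 10.50 in sleep-deprived livers and 9.77 to 9.997 in controls, and that at the 5' end 7.02 to 8.56 and 6.06 to 8.03, both with overlap.

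Slc37a4 (1417042_at), the glucose-6-phosphate transporter that supplies G6pc, was higher after sleep deprivation on every array of each strain. Log2 levels were 10.89, 10.86 and 11.02 in sleep-deprived C57BL/6J livers and 10.54, 10.34 and 10.25 in C57BL/6J controls. They were 10.86, 10.73 and 10.71 in sleep-deprived AKR/J livers and 10.46, 10.52 and 10.45 in AKR/J controls. In DBA/2J they were 10.68, 10.29 and 10.57 in sleep-deprived livers and 10.06, 10.21 and 10.25 in controls. The groups did not overlap in any strain, and in DBA/2J the nearest arrays were 10.29 and 10.25. The mean rise was 0.39 ± 0.06 (1.31-fold, adjusted p = 0.0006506 by limma). C57BL/6J passed alone, at 0.55 ± 0.10 (adjusted p = 0.01396 by limma, missed under 3 of 25 alternatives), while AKR/J (0.29) and DBA/2J (0.34) did not. G6pc, Pck1 (1423439_at) and Slc37a4 were thus the 3 of 17 probe sets with no overlap in any strain, against 0.711% of all probe sets.

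Foxo1, the insulin-restrained forkhead factor that acts on G6pc and Pck1, rose on 3 of its 4 probe sets. On 1416983_s_at the levels were 8.34, 8.06 and 8.33 in sleep-deprived C57BL/6J livers, against 7.45, 7.93 and 7.67 in controls. In DBA/2J they were 8.19, 8.40 and 8.27 in sleep-deprived livers, against 7.74, 7.79 and 7.65 in controls. In AKR/J they were 7.72, 7.85 and 7.69 in sleep-deprived livers, against 7.64, 7.71 and 7.71 in controls. The conditions were apart in C57BL/6J and DBA/2J and overlapped in AKR/J. Averaged over strains, the rise was 0.40 ± 0.06 on 1416983_s_at (1.32-fold, adjusted p = 0.001086), 0.40 ± 0.05 on 1416982_at (adjusted p = 0.0001562) and 0.37 ± 0.07 on 1416981_at (adjusted p = 0.003734), all by limma. The fourth, 1456529_at, was dim, at 3.67 to 4.51, and changed by -0.17 ± 0.08 (adjusted p = 0.2933 by limma).

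The Foxo1 rise was called in C57BL/6J and in DBA/2J on all 3 probe sets and in AKR/J on 0 of them. Of 25 alternatives, 1416981_at, 1416982_at and 1416983_s_at missed the threshold under 14, 0 and 5 in C57BL/6J and under 17, 8 and 7 in DBA/2J. In C57BL/6J the estimates were 0.54, 0.64 and 0.56 on 1416981_at, 1416982_at and 1416983_s_at (adjusted p of 0.04452, 0.001278 and 0.02052 by limma). In DBA/2J they were 0.53, 0.47 and 0.56 (adjusted p of 0.04878, 0.02386 and 0.02476 by limma), and in AKR/J 0.05, 0.09 and 0.07. The test of the difference itself, limma's F test of the strain by sleep deprivation interaction, gave unadjusted p of 0.01258, 0.00165 and 0.007506 and adjusted p of 0.6147, 0.4092 and 0.5688. A difference between strains in the Foxo1 response was therefore not established over all probe sets. The 3 probe sets are assigned to the same gene and were read on the same arrays, so they are not independent.

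In the average over strains, markers of liver endothelium moved in the same direction as Foxo1. Of 6 such genes, 4 rose: Lyve1 (0.99), Oit3 (0.44), Pecam1 (0.42) and Clec4g (0.34), while Stab2 (0.14) and Kdr (0.05) did not pass. Over the brightest probe sets of all genes, 4.88% were called in either direction. Of 26 alternatives, Lyve1 passed under all, Pecam1 and Oit3 missed under 2 and Clec4g under 10. Without AKR/J, Pecam1 changed by 0.31, Oit3 by 0.42 and Clec4g by 0.17, and none of them passed (adjusted p of 0.119, 0.08181 and 0.3563 by limma). Without AKR/J controls 2 and 3, which carry the conflicting ZT label, the changes were 0.32, 0.32 and 0.22 in the same order. The AKR/J values below rest in part on those controls. The mean level of this list was 7.04 to 7.30 on sleep-deprived arrays and 6.36 to 6.99 on controls, without overlap. In AKR/J, where Foxo1 changed by 0.05, 0.09 and 0.07 on its 3 brighter probe sets, Lyve1 rose by 0.73. Clec4g rose there by 0.67, Pecam1 by 0.64 and Oit3 by 0.48, and Clec4g alone passed. In C57BL/6J and DBA/2J the changes were 1.18 and 1.05 for Lyve1 and 0.16 and 0.17 for Clec4g. They were 0.34 and 0.28 for Pecam1 and 0.41 and 0.42 for Oit3. Among hepatocyte markers, 1 of 9 rose, Ass1 (0.37), which missed the threshold under 2 of these alternatives. Without AKR/J its change was 0.26 (adjusted p = 0.2793 by limma). The Ass1 probe set was dim, with a mean liver level of 5.79, against 12.01 (Apob) to 14.66 (Alb) for the other hepatocyte markers. No gene of the Kupffer cell list (7), the stellate cell list (6) or the cholangiocyte list (4) passed. Of the adipocyte list 1 of 3 rose, Fabp4 (0.56), which missed the threshold under 14 of 26 alternatives. Of the lymphocyte list 1 of 5 fell, Cd79a (-0.30), and of the neuron list 1 of 6 fell in liver, Syt1 (-0.58), which passed under all 26 alternatives. Of the other probe sets of these genes, 1 of 1 passed for Lyve1, 0 of 1 for Clec4g, 0 of 3 for Fabp4 and 1 of 3, lower, for Syt1. In whole-tissue RNA, more cells of a type and more RNA per cell cannot be told apart, and the part of endothelial RNA in the Foxo1 result was not tested.

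**Figure D3:**
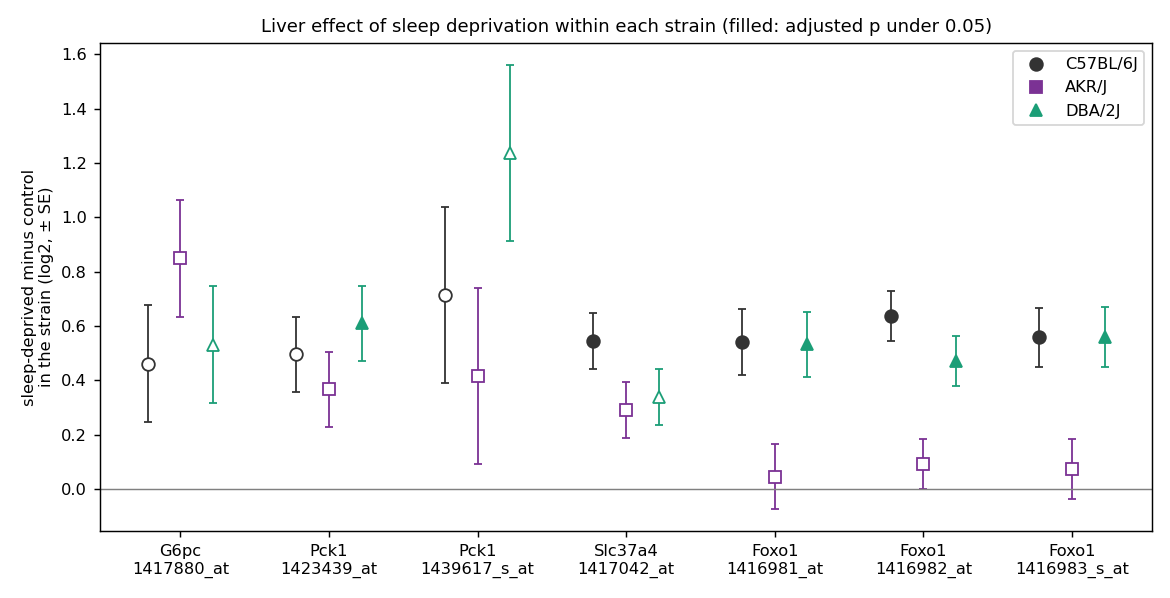
Change with sleep deprivation within each strain (y axis, log2 units, sleep-deprived minus control, error bars are SE from limma) for the 7 liver probe sets called in the average over strains; filled symbols passed in that strain. The 3 Foxo1 probe sets lie between 0.47 and 0.64 in C57BL/6J and DBA/2J and between 0.05 and 0.09 in AKR/J.

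The other regulators, Ppargc1a and Creb3l3, did not pass in the average. Ppargc1a, the coactivator that fasting induces in liver, had 5 probe sets with liver levels of 3.46 to 6.95 and mean changes of -0.02 to 0.14. Of these, 1437751_at, 1456395_at and 1460336_at had levels above 5 on at least 3 arrays, and 1434099_at and 1434100_x_at did not. On the brightest, 1460336_at, levels were 4.39 to 6.95 in sleep-deprived livers and 5.28 to 6.39 in controls, so the sleep-deprived arrays spread over a wider range than the controls. On 1460336_at the change was -0.54 in AKR/J, -0.06 in C57BL/6J and 0.53 in DBA/2J. The changes on 1434100_x_at were -0.43, 0.26 and 0.14 in the same order. None of these passed within a strain. Creb3l3 (1424688_at), which encodes CREBH, had levels of 10.36 to 10.73 in sleep-deprived livers and 10.32 to 10.56 in controls, and changed by 0.15 ± 0.05 (adjusted p = 0.1151 by limma). All its sleep-deprived arrays were above the controls in AKR/J (0.20) and DBA/2J (0.24) and they overlapped in C57BL/6J (0.01). None of these changes passed within a strain. In the other direction, all sleep-deprived arrays were below the controls for Ppargc1a 1434100_x_at and 1460336_at in AKR/J. The same held for the dim Foxo1 probe set 1456529_at in C57BL/6J. The share of all probe sets that separate in single strains was not counted.

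Counted by strain, 4 probe sets passed in C57BL/6J (Slc37a4 and 3 of Foxo1) and 4 in DBA/2J (Pck1 1423439_at and 3 of Foxo1), all higher, against 0.524% and 0.457% of all probe sets called higher. In AKR/J 0 of 17 passed by limma, with 5 at an unadjusted p under 0.05, against 0.711% of all probe sets called. No probe set of the 8 genes passed the interaction test in liver, with 4 at an unadjusted p under 0.05, and 0.0333% of all probe sets did. The strain counts rest on 3 arrays a side: in DBA/2J the count was 0 without control array 1, sleep-deprived array 1 or sleep-deprived array 3, and 1 without control array 2 or sleep-deprived array 2. In C57BL/6J it was 1 without sleep-deprived array 3 or control array 3, and 2 without sleep-deprived array 1 or control array 1 or 2. In AKR/J it was 1 without sleep-deprived array 3. Without DBA/2J control array 1 the DBA/2J estimates were 0.50 for Pck1 and 0.49, 0.49 and 0.57 for Foxo1, with adjusted p of 0.2286, 0.1927, 0.067 and 0.07752 by limma.

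Among home-cage controls, G6pc, Pck1 and Fbp1 were lower in AKR/J than in C57BL/6J livers. G6pc averaged 9.89 ± 0.28 in AKR/J controls and 10.88 ± 0.22 in C57BL/6J controls (SD, n = 3 each), a difference of -0.99 ± 0.22 log2 units (SE, 1.98-fold lower, adjusted p = 0.008727 by limma). Pck1 (1423439_at) averaged 11.51 ± 0.19 in AKR/J and 12.15 ± 0.22 in C57BL/6J, a difference of -0.64 ± 0.14 (adjusted p = 0.007796 by limma). Fbp1 averaged 13.01 ± 0.10 in AKR/J and 13.28 ± 0.05 in C57BL/6J, a difference of -0.27 ± 0.08 (adjusted p = 0.04639 by limma). These were 3 of the 17 tested probe sets, and 2.07% of all probe sets were called lower in this comparison.

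Of the 3 AKR/J controls, 2 carry the conflicting ZT 0 label. Without these controls G6pc differed by -0.88 (adjusted p = 0.2392), Pck1 by -0.76 (adjusted p = 0.06312) and Fbp1 by -0.29 (adjusted p = 0.2878), all by limma. The direction held and the calls did not, with 1 AKR/J control array left, which is then assumed to vary like the other groups. Without AKR/J control array 2 alone G6pc differed by -0.83 (adjusted p = 0.06599 by limma), and without C57BL/6J control array 3 by -0.86 (adjusted p = 0.05554 by limma). Fbp1 missed the threshold under 17 of 26 alternatives. Between DBA/2J and C57BL/6J controls 0 of 17 probe sets passed by limma, with 1 at an unadjusted p under 0.05, against 5.57% of all. Between DBA/2J and AKR/J controls 0 passed by limma, with 4 at an unadjusted p under 0.05, against 4.21% of all. Those included G6pc (0.66), Pck1 (0.35) and Fbp1 (0.24), higher in DBA/2J, and Slc37a4 (-0.30).

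In brain, which does not release glucose into the blood, none of these genes passed. The level of G6pc was 3.17 to 3.63 in sleep-deprived brains and 3.25 to 3.61 in control brains, near the bottom of the scale. Pck1 (1423439_at) and Fbp1 also lay low on all brain arrays, at 2.81 to 3.06 and at 3.82 to 4.41. Pcx was measured in brain, at 7.49 to 7.96 in sleep-deprived brains and 7.72 to 8.07 in controls. Averaged over strains, 0 of 17 probe sets passed in brain by limma, with 1 (Foxo1 1416983_s_at, -0.22) at an unadjusted p under 0.05, against 1.73% of all. Between control brains 0 passed by limma for AKR/J against C57BL/6J (0 at an unadjusted p under 0.05, 2.00% of all called), DBA/2J against C57BL/6J (0 and 1.90%) or DBA/2J against AKR/J (1 and 1.59%). Oligodendrocyte markers had a mean level of 9.52 to 9.84 in sleep-deprived brains and 9.94 to 10.09 in controls, and their part in the brain values was not tested.

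The change with sleep deprivation was larger in liver than in brain for 6 of the 17 probe sets, by a fit over all 36 arrays, against 1.02% of all probe sets called in that direction. For G6pc the change was 0.61 in liver and 0.02 in brain, a difference of 0.60 ± 0.15 (adjusted p = 0.03262 by limma) that missed the threshold under 17 of 44 alternatives. For Pck1 (1423439_at) it was 0.49 in liver and 0.04 in brain, and for Slc37a4 0.39 in liver and -0.08 in brain (adjusted p of 0.007846 and 0.002745 for the differences by limma). The differences for the 3 Foxo1 probe sets were 0.38, 0.38 and 0.61, the last with a change of 0.40 in liver and -0.22 in brain. G6pc and Pck1 did not pass the filter on dim probe sets in brain, so their differences largely restate the change in liver.

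**Figure D4:**
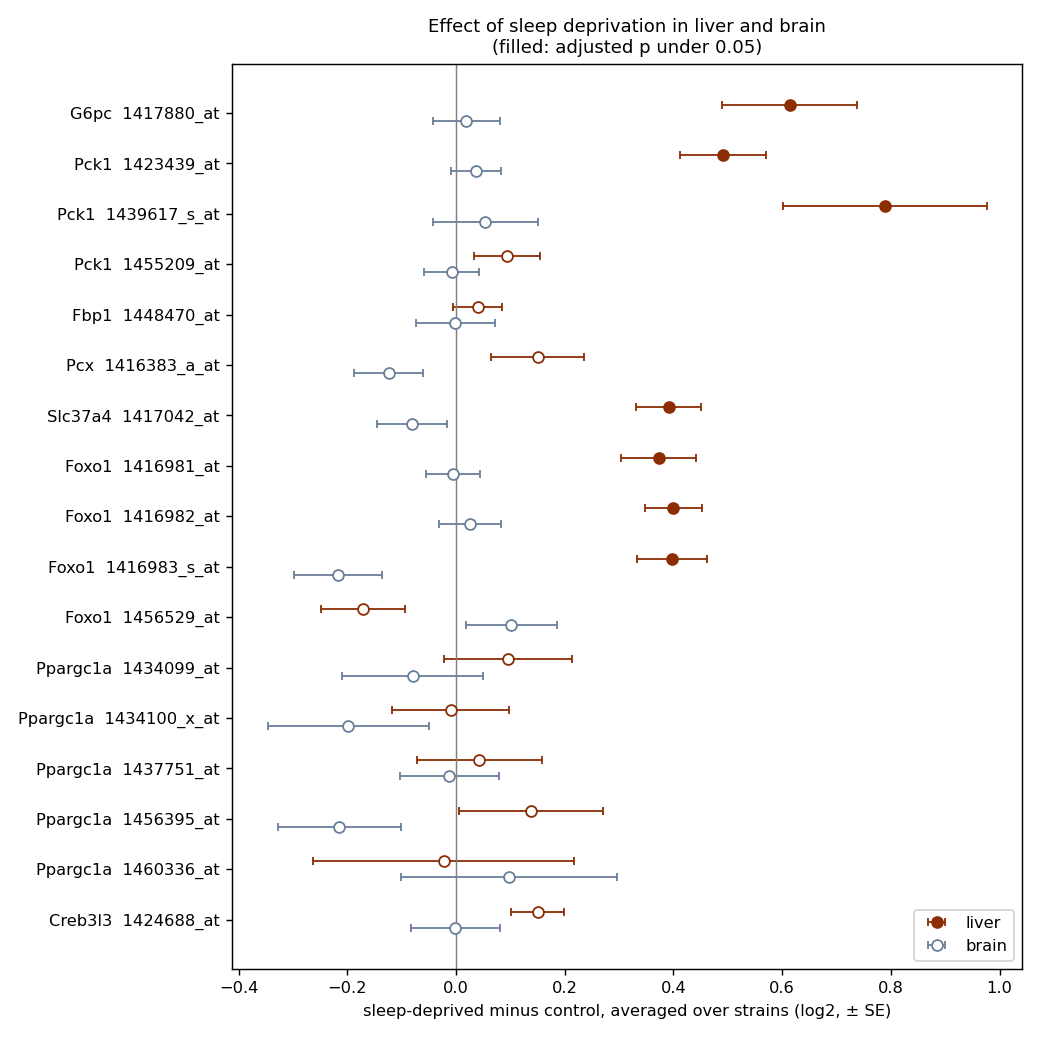
Change with sleep deprivation averaged over strains (x axis, log2 units, sleep-deprived minus control, error bars are SE from limma) for the 17 tested probe sets, with liver above brain for each; filled points passed at an adjusted p under 0.05. In liver 7 points are filled, from 0.37 to 0.79, and in brain 0.

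Some of the other genes of the pathway were called in liver, all of them higher. Among 10 measured genes for other enzymes of the route, 1 rose in liver: Got1, the cytosolic aspartate aminotransferase, by 0.48 ± 0.12 (adjusted p = 0.03556 by limma). It missed the threshold under 15 of 26 alternatives, most of which left out a single array. The others, such as the mitochondrial enzyme Pck2 (0.07) and malate dehydrogenase Mdh1 (0.01), did not pass, and the list's median change was 0.01. Of 15 genes that bring substrates in, 2 rose, and the list's median was 0.02. These were Tat, which starts the breakdown of tyrosine, by 0.83 ± 0.11 (1.78-fold, adjusted p = 0.0002303 by limma) and the amino acid transporter Slc38a2 by 0.38 ± 0.07 (adjusted p = 0.002859 by limma). For Tat the changes were 1.09 in C57BL/6J, 0.78 in DBA/2J and 0.62 in AKR/J. For Slc38a2 the changes were 0.82 in C57BL/6J, 0.49 in DBA/2J and -0.16 in AKR/J, and 0 of its 2 other probe sets passed. Of the strains, C57BL/6J alone passed for both genes. Each gene in these lists was read from its brightest probe set in liver, and 4.88% of such probe sets were called in either direction, with a median of -0.02.

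Of 20 other transcriptional regulators, 5 rose and 0 fell, with a list median of 0.06. Cebpd, a stress and glucocorticoid-responsive factor, rose by 0.91 ± 0.11 (1.88-fold, adjusted p = 4.924e-05 by limma), and its levels were 5.27 to 7.50 in sleep-deprived livers and 4.86 to 5.97 in controls. The change of Cebpd was 1.71 in C57BL/6J, the one strain that passed, 0.52 in AKR/J and 0.50 in DBA/2J. Its 1 other probe set did not pass. Klf15, a glucocorticoid target that promotes the use of amino acids for glucose, rose by 0.47 ± 0.06 (adjusted p = 0.0001895 by limma). Creb1, which encodes CREB, rose by 0.53 ± 0.09 on 1 probe set (adjusted p = 0.001101 by limma), and 0 of its 5 other probe sets passed. The change of Creb1 was 0.88 in DBA/2J, the one strain that passed, 0.44 in AKR/J and 0.28 in C57BL/6J. Nr0b2, a corepressor of these genes, rose by 0.57 ± 0.13 (adjusted p = 0.01408 by limma) and Hnf4a by 0.24 ± 0.06 (adjusted p = 0.03619 by limma), which missed the threshold under 15 of 26 alternatives, most of them single arrays left out. Those not called included the glucocorticoid receptor Nr3c1 (-0.05), the CREB coactivator Crtc2 (0.07) and Cebpb (0.50, adjusted p = 0.0535 by limma).

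In the hormone signalling list 2 of 14 genes rose, with a list median of 0.01. Igfbp1, which insulin represses and FOXO1 induces, rose by 1.58 ± 0.26 (2.98-fold, adjusted p = 0.001251 by limma). The lowest, median and highest levels were 10.43, 11.35 and 11.59 in sleep-deprived C57BL/6J livers, the highest of any strain, and 8.03, 8.72 and 9.68 in C57BL/6J controls. The insulin receptor substrate Irs1 rose by 0.40 ± 0.08 (adjusted p = 0.009712 by limma), and the insulin receptor Insr (0.01), the glucagon receptor Gcgr (0.06) and Irs2 (0.15) did not pass. Of 7 genes of glycolysis and other glucose use (such as Pfkl, Pklr, the pyruvate dehydrogenase kinases Pdk2 and Pdk4, and the glucose transporter Slc2a2), 1 rose, with a list median of 0.22. This was Pfkfb3, which makes the fructose-2,6-bisphosphate that inhibits Fbp1, by 1.29 ± 0.15 (2.45-fold, adjusted p = 2.812e-05 by limma). It passed in DBA/2J (1.21), AKR/J (1.29) and C57BL/6J (1.37) alike. Of the other probe sets of these genes, 1 of 1 rose for Pfkfb3 and 1 of 3 for Hnf4a. In brain, averaged over strains, the one gene of these lists that passed was Gpt2 (0.36), of substrate entry.

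**Figure D5:**
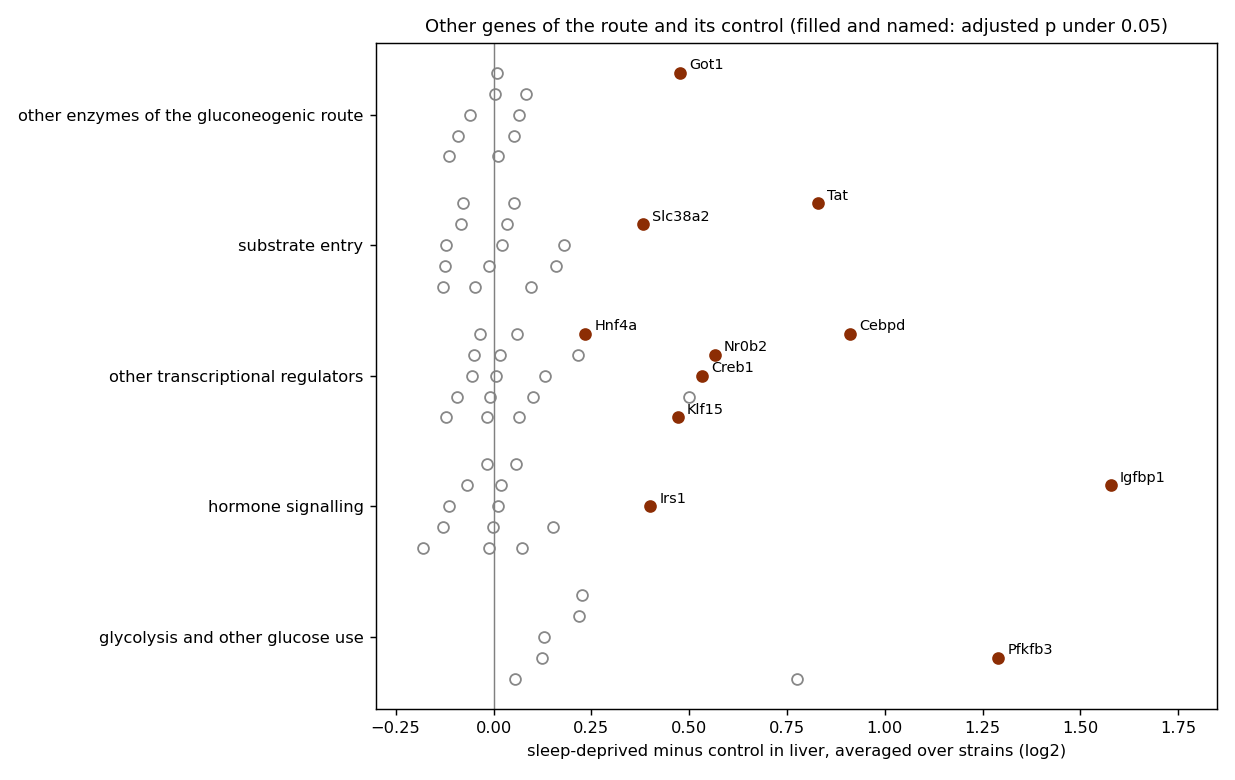
Change with sleep deprivation in liver averaged over strains (x axis, log2 units, sleep-deprived minus control) for each measured gene of 5 lists (rows); filled, named points passed at an adjusted p under 0.05, and the vertical scatter within a row carries no value. Igfbp1 at 1.58 and Pfkfb3 at 1.29 lie farthest to the right, and no called gene lies below 0.

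Across the 18 liver arrays the members did not all vary together. Pck1 and Foxo1 had a Pearson correlation of 0.82 and G6pc and Pck1 one of 0.79, while Ppargc1a had -0.11 with G6pc and 0.01 with Pck1, and Slc37a4 had -0.09 with Fbp1. Each gene was read from its brightest liver probe set. For Ppargc1a this was 1460336_at, which scattered widely within groups (SD of 1.29 in sleep-deprived C57BL/6J livers), so its low correlations may reflect that scatter. Among 7040 genes with a mean level above 6, those most like G6pc were Rgs16 (0.85), Denn2b (0.84) and Tmie (0.84). Those most like Pck1 were Rsrp1 (0.91), Mfsd2a (0.90) and Pawr (0.88), and those most like Slc37a4 were Slc29a1 (0.90), Tango2 (0.87) and Mast3 (0.86). Foxo1 was most like Sik3 (0.90), Sos1 (0.88) and Wdr48 (0.87), and Fbp1 most like Sucnr1 (0.91), Atg3 (0.87) and Ces1g (0.86). Those most like Pcx were Zdhhc9 (0.91), Smoc1 (0.84) and Wbp2 (0.84), those most like Ppargc1a L3hypdh (0.82), Nr1d2 (0.82) and Usp45 (0.77), and those most like Creb3l3 Lman2l (0.80), Dnase2b (0.77) and Elovl3 (0.77). The arrays share strain and condition, so these correlations carry group differences as well as variation between pools.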

How the data were processed

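The authors deposited log2 values summarised by RMA, a tool named in the submitters' processing notes without a version. RMA gives arrays processed together a common distribution and compresses changes of dim probe sets. The median level was 4.05 to 4.14 on liver arrays and 4.74 to 4.86 on brain arrays, and no brain level was set against a liver level. No further normalisation was applied. Arrays have no sequencing depth, and their number limits the precision.

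The tests took in 45037 probe sets, without the 64 controls. Genes were named from the platform annotation, with symbols updated through GRCm38.p6 gene identifiers; 34945 probe sets had 1 symbol, 932 several and 9160 none. Each tissue was fitted in limma 3.58.1 (R 4.3.3) as 6 group means over 18 arrays, and a fit over 36 arrays gave the difference between tissues. P-values are two-sided, and errors after ± are limma's SE unless stated as SD. The fits were tested on simulated data. Of the 17 member probe sets, 13 in liver and 11 in brain passed a filter of 5 log2 units on at least 3 arrays, used as an alternative alone.

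The other alternatives were median centring, quantile normalisation, trended robust variances, the replicate number as a block, the 6 compared arrays alone, and leaving out single arrays, doubted arrays, AKR/J or its controls 2 and 3. All tested probe sets of the members were reported, as were the genes of each list called in liver in the average over strains. Members, lists and markers were chosen with earlier results of these data known. Some genes of the lists were not analysed here.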

Additional observations from a re-analysis of the deposited data

Results flagged for a closer look

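The change with sleep deprivation differed between liver and brain for 6 probe sets of 4 genes, by limma's test of the difference over all 36 arrays. The difference, liver minus brain, was 0.595 for G6pc, 0.456 for Pck1 (1423439_at) and 0.472 for Slc37a4. For Foxo1 it was 0.379 on 1416981_at (adjusted p = 0.01715), 0.375 on 1416982_at (adjusted p = 0.006468) and 0.614 on 1416983_s_at (adjusted p = 0.0009929). All 6 were higher in liver. In brain, G6pc (3.17 to 3.63) and Pck1 (2.81 to 3.06) did not pass the filter on dim probe sets, so their differences largely restate the liver change. G6pc was the least steady of them, and missed the threshold under 17 of 44 alternatives.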

How the results depend on the processing

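In the average over strains, G6pc, Pck1 1423439_at, Slc37a4 and 3 probe sets of Foxo1 passed under all 26 alternatives. Pck1 1439617_s_at missed the threshold under 5, with adjusted p of 0.08535 under trended robust variances, 0.0721 without AKR/J controls 2 and 3, 0.07377 without AKR/J, 0.05018 without C57BL/6J control 1 and 0.05067 without sleep-deprived C57BL/6J array 3. These 7 probe sets kept their direction throughout. Some that did not pass changed sign: Ppargc1a 1460336_at ran over -0.25 to 0.234 and 1434100_x_at over -0.097 to 0.199. The count of 4 in DBA/2J was 1 with quantile normalisation, 0 without the doubted arrays and 0 with only the 6 arrays compared. The count of 3 between AKR/J and C57BL/6J controls was 0 without AKR/J controls 2 and 3. That of 0 between DBA/2J and AKR/J controls was 1 with the dim filter, with trended robust variances and with only the 6 arrays compared.

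With single arrays left out, the liver counts ranged over 6 to 7 for the average over strains, 1 to 4 in C57BL/6J, 0 to 1 in AKR/J, 0 to 4 in DBA/2J, 0 to 0 for the interaction, 1 to 3 for AKR/J minus C57BL/6J controls, 0 to 0 for DBA/2J minus C57BL/6J controls and 0 to 1 for DBA/2J minus AKR/J controls. The 4 counts in brain stayed at 0, and that for liver minus brain ranged over 5 to 7. In DBA/2J the count was also 2 without arrays of other strains (AKR/J controls 1 or 2, sleep-deprived AKR/J array 3, C57BL/6J controls 2 or 3, sleep-deprived C57BL/6J arrays 1 or 3), which share its error estimate. The arrays were fitted without pairing by replicate number. Same-numbered sleep-deprived and control arrays of a strain correlated in their deviations above 0.1 in 1 of 9 liver pairs and 4 of 9 brain pairs. The correlations ran from -0.122 to 0.216 in liver and from -0.416 to 0.406 in brain. With 3 arrays a group they cannot settle whether the numbers mark pairs. The fit over 36 arrays took liver and brain arrays as independent. With the replicate number as a block the average over strains gave 7 calls in liver, and Got1 had an adjusted p of 0.05014. With 3 pools a group, the number of arrays and a low signal of some probe sets limit the precision.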
